A study of Rattus norvegicus with 10 samples.

Results

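The 10 genes described here make or take up the fatty acids of milk, and were chosen by name: Fasn, Acaca, Acly, Scd1, Srebf1, Thrsp, Lpl, Dgat1, Gpam and Fabp3. The array carried 14 probes for them among its 41012 non-control probes, with 2 probes each for Fasn, Acaca, Lpl and Dgat1 and 1 for each of the others. Their mRNA was measured in milk whey, the fluid left after fat, cells and casein had been spun out of the milk and the rest filtered, from 3 rats of the inbred strain F344/N. Each of these dams was milked after oxytocin on d 2, d 9 and d 16 postpartum, giving 3 arrays per day and 9 whey arrays in all, and the dams had no other treatment that the labels name. Serum drawn from these dams on d 21 was measured on 1 array with the RNA of the 3 dams mixed, so serum has no replicate. The question put to the whey arrays was how the mRNA of milk changed over lactation, and the serum array served as the other body fluid. The d 2 milk is called colostrum and the later milks mature milk.

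The fat of milk is nearly all triacylglycerol, and the mammary alveolar cell gets its fatty acids in 2 ways. It makes short and medium chains itself, when ATP citrate lyase (Acly) turns citrate into acetyl-CoA, acetyl-CoA carboxylase (Acaca) turns this into malonyl-CoA and fatty acid synthase (Fasn) joins the units, under the transcription factor Srebf1 and the small nuclear protein Thrsp (Spot 14). Long chains come from the blood, where lipoprotein lipase (Lpl) frees them from circulating lipoproteins and the fatty acid binding protein Fabp3 carries them through the cytoplasm. Stearoyl-CoA desaturase (Scd1) puts a double bond into long chains, and the acyltransferases Gpam and Dgat1 catalyse the first and the last step of joining them to glycerol.

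What the array reads is the match of labelled cRNA to a probe of 60 bases, and 3 sets of probe are shown because results below turn on them. The files place the Fabp3 probe A_44_P262091 at chr5:149344170-149344229 on the plus strand of rn4, the Thrsp probe A_43_P11520 at chr1:154651216-154651275 on the minus strand, and the Dgat1 probes A_44_P515326 and A_44_P515334 at chr7:114552281-114552340 and chr7:114553035-114553094 on the minus strand. Fabp3 had the highest approximate lower bound over serum. Thrsp is shown as a gene whose days could not be told apart, and the Dgat1 pair reads different stretches of 1 mRNA. No part of a probe is set in capitals.
Fabp3 A_44_P262091: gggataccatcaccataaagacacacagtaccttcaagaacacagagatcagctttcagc
Thrsp A_43_P11520: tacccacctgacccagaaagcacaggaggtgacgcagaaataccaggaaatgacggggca
Dgat1 A_44_P515326: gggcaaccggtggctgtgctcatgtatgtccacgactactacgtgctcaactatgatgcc
Dgat1 A_44_P515334: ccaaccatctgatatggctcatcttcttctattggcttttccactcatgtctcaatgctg

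Promoters are shown for Acly and Fabp3, the members whose decrease from d 2 to d 16 passed the test. RefSeq's table for the build GRCr8 held promoters for 6 of the 10 genes (Acly, Scd1 under its present symbol Scd, Srebf1 with 2 starts, Thrsp, Gpam and Fabp3). The 250 bases before each start were searched on both strands for 4 motifs: the sterol regulatory element TCACNCCAC, the E-box CACGTG, the NF-Y box CCAAT and the STAT5 site TTCNNNGAA. Only CCAAT was found, so no matches of different motifs overlapped. It lay 71 to 67 bases before the Acly start, and on the other strand, as ATTGG, 121 to 117 bases before the Thrsp start, 174 to 170 before the Gpam start, 169 to 165 before 1 Srebf1 start, and 131 to 127 and 108 to 104 before the other. Of all 33469 promoters of this length 34.02% held CCAAT, 7.667% TTCNNNGAA, 5.593% CACGTG and 0.974% TCACNCCAC, so a CCAAT match is common. The Acly promoter lies at chr10:85963632-85963881 on the minus strand and the Fabp3 promoter at chr5:147935875-147936124 on the plus strand of GRCr8, a build other than that of the probes. The capitals mark CCAAT, which is in the Acly promoter and not in these letters of the Fabp3 promoter.
Acly: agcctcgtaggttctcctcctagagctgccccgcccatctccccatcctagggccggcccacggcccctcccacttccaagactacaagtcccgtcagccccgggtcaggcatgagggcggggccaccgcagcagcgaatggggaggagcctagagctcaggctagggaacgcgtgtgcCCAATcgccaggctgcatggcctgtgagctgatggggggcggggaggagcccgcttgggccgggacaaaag
Fabp3: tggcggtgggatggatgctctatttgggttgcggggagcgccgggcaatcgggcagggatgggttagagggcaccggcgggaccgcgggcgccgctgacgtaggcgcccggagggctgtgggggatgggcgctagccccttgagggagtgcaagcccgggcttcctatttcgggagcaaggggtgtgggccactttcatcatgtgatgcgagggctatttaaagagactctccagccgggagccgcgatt

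Levels are log2 normalized intensities, brought to 1 common distribution over the arrays, so that a difference of 1 is a 2-fold change and levels of different probes cannot be compared. "Well above background" is the scanner software's own call for a spot. Before normalization the 75th percentile of the signal ran from 12.5 to 83.2 on the whey arrays and was 4.11 on the serum array, and 10702 to 18014 probes per whey array were well above background against 6172 in serum. Arrays of the same day correlated at r = 0.949 to 0.982. Days were compared with limma over the 9 whey arrays for the 16849 probes detected in whey, and p-values were adjusted by the Benjamini-Hochberg method over all of them. With 3 slides, d 16 and the serum shared a slide scanned on a later day, so that d 16 cannot be told apart from its slide, whereas the d 9 arrays shared theirs with the third d 2 array.

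In whey, 12 of the 14 probes gave a signal well above background on every array, and 13, of 9 genes, entered the tests. The one left out was the Srebf1 probe A_42_P667564, which was well above background on none of the 10 arrays. In plain terms, relative to the other mRNAs on each array, Acly fell after d 2, Fabp3 fell by d 16, and 1 of the 2 Lpl probes rose by d 16. With the dam as a block, the Acly decrease to d 9 and the Lpl rise no longer passed the test. Fasn, Acaca, Thrsp, Dgat1 and Gpam did not pass the test in any comparison, and Scd1 passed only the test over all 3 days. The paper's quantitative PCR, on equal volumes of whey, instead found Fasn and Lpl significantly higher in colostrum than in mature milk. That is a measure per volume, whereas the arrays read shares of the RNA.

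**Figure D1:**
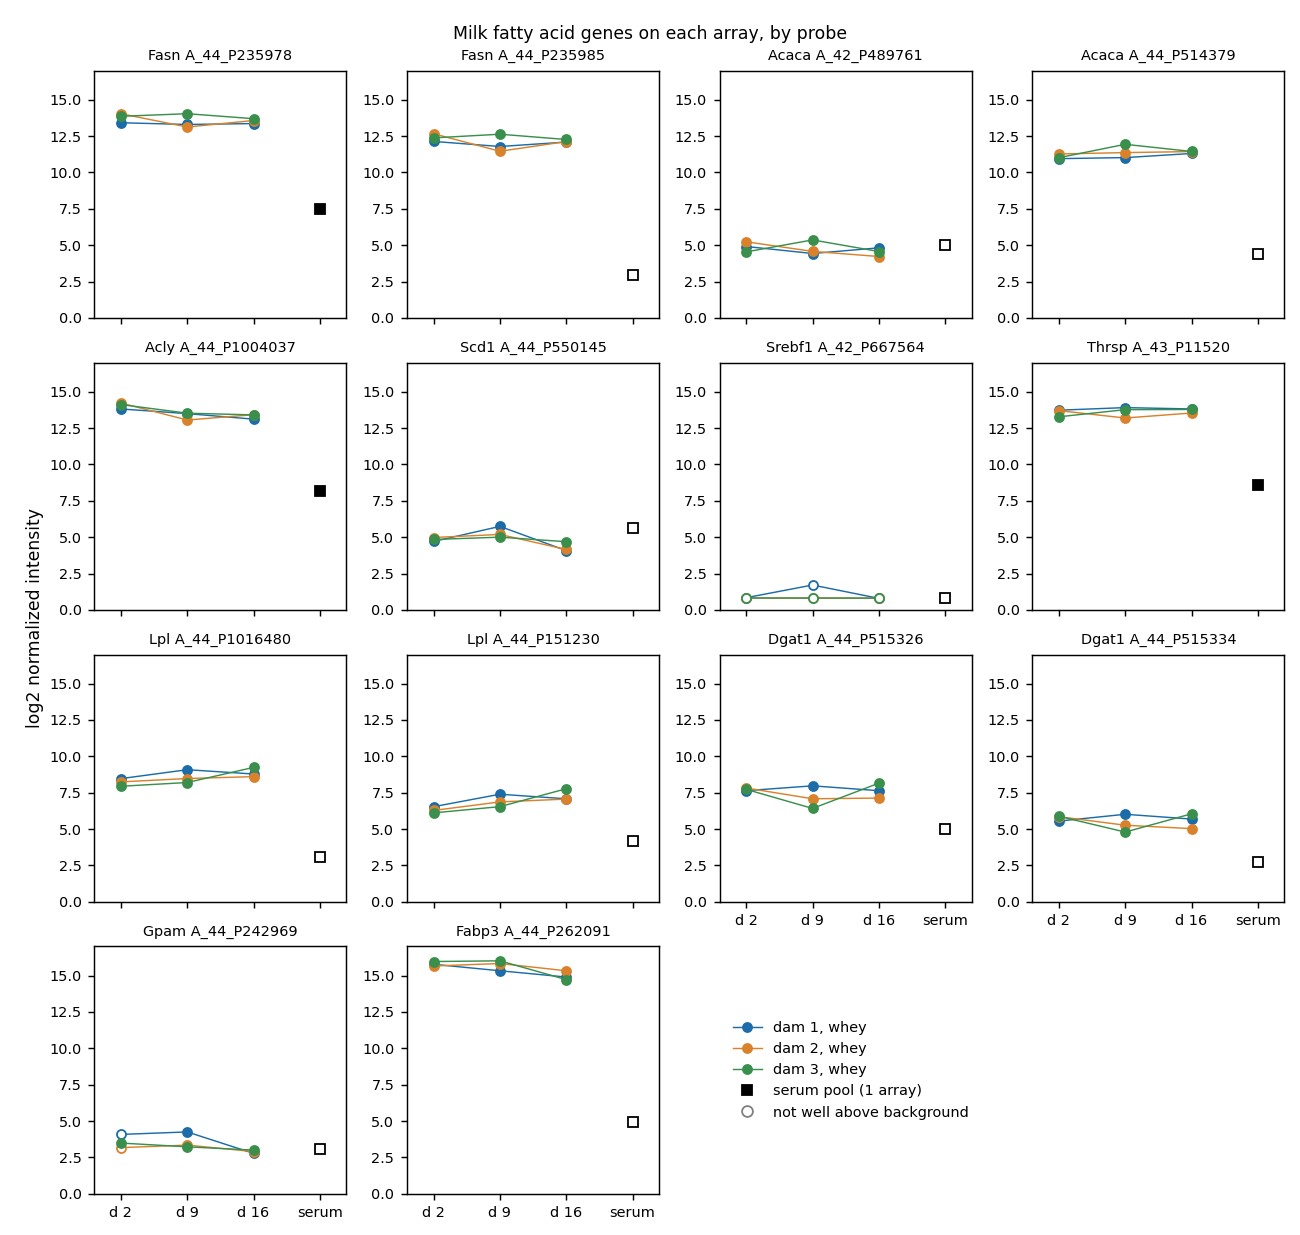
Log2 normalized intensity (vertical axis) of each of the 14 probes in whey of d 2, d 9 and d 16 and in serum (horizontal axis). Circles joined by a line are the 3 arrays of 1 dam, squares are the serum array, and open symbols are not well above background; the Acly, Fasn, Thrsp and Fabp3 probes lie above 11 in every whey sample, while Srebf1 is open everywhere.

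Acly, which supplies the acetyl-CoA for fatty acid synthesis, was read by the probe A_44_P1004037 at chr10:89421079-89421138 (rn4, minus strand). Its level was 13.81, 14.22 and 14.11 in the d 2 whey of dams 1, 2 and 3, 13.49, 13.05 and 13.52 on d 9, and 13.11, 13.42 and 13.40 on d 16. All 3 d 2 values lay above all 6 later ones, and each dam was lower on both later days than on d 2. The mean fell by 0.70 from d 2 to d 9 (SE 0.18, limma adjusted p = 0.0375, n = 3 a day) and by 0.74 from d 2 to d 16 (SE 0.18, limma adjusted p = 0.0208), a 1.62-fold and a 1.67-fold decrease. The d 9 and d 16 levels overlapped, with a difference of -0.04 (95% interval -0.47 to 0.38, limma adjusted p = 0.923).

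The Acly decrease was a decrease relative to the other mRNAs on each array. Its unnormalized signal was 7585 to 20813 on d 2, 10480 to 42040 on d 9 and 8073 to 19396 on d 16. With the arrays scaled to their spike-in probes the d 9 minus d 2 difference was 0.76 (limma adjusted p = 0.322), while the median of all tested probes was then 1.52, so that Acly stood 0.77 below that median, against 0.81 below it in the normalized values. The d 16 call ended too under this scaling, with a difference of -0.16 (limma adjusted p = 0.929), which was 0.74 below a median of 0.59. With the dam as a block the d 9 call ended (limma adjusted p = 0.0543), and with the slide as a block the difference was -0.76 (limma adjusted p = 0.193), a value that rests on 1 d 2 array, the third, against the 3 d 9 arrays of the same slide. The d 9 call was also lost without d 2 dam 2 or 3, d 9 dam 1 or 2, or d 16 dam 2 or 3 (adjusted p = 0.0546 to 0.110), and the d 16 call without d 2 dam 2 or 3 or d 16 dam 1 or 3 (adjusted p = 0.0528 to 0.0696), all with the same sign.

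Acaca, the rate-limiting enzyme of the pathway, was read by 2 probes that differed in signal and in the direction of their differences. The probe A_44_P514379, at chr10:72678945-72679004, which the files annotate to a separate record of the 3' untranslated region, read 10.95, 11.27 and 11.02 on d 2, 11.02, 11.37 and 11.94 on d 9, and 11.31, 11.44 and 11.44 on d 16. The 3 d 16 values lay just above the d 2 values, with a difference of 0.32 (95% interval -0.21 to 0.84, limma adjusted p = 0.328). The probe A_42_P489761, at chr10:72677048-72677107, lay between 4.22 and 5.36 in whey with all days overlapping, and its d 16 minus d 2 difference was -0.36 (limma adjusted p = 0.397). Across the 9 whey arrays the 2 probes correlated at only r = 0.395, which is given as a description since the arrays share dams and slides.

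Fasn, the enzyme that builds the chain, was read by 2 probes that the files leave without a place in rn4. The probe A_44_P235978 read 13.42, 14.04 and 13.86 on d 2, 13.30, 13.12 and 14.04 on d 9, and 13.36, 13.57 and 13.70 on d 16. The probe A_44_P235985 read 12.13, 12.66 and 12.38 on d 2, 11.78, 11.46 and 12.63 on d 9, and 12.09, 12.12 and 12.27 on d 16. The days overlapped on both probes and the spread was widest on d 9, where dam 3 was highest and dam 2 lowest on each. From d 2 to d 9 the differences were -0.29 (95% interval -0.90 to 0.33, limma adjusted p = 0.476) and -0.43 (-1.11 to 0.24, limma adjusted p = 0.326). The second probe passed the test for d 9 only without d 9 dam 3 (difference -0.77, limma adjusted p = 0.0439). From d 2 to d 16 they were -0.23 on each probe (limma adjusted p = 0.551 and 0.581), and a 2-fold change either way lay outside the intervals for d 16. Each dam was lower on d 16 than on d 2 on both probes, although the days overlapped.

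The 2 Fasn probes moved together across the 9 whey arrays (r = 0.953). Among the 7259 probes that carry a gene symbol and were well above background with a value on all 9, the 5 genes whose level followed the first Fasn probe most closely were Prpf8 (r = 0.961), Arcn1 (r = 0.959), Kdm5b (r = 0.944), RGD1309995 (r = 0.925) and Cib1 (r = 0.912). Of these, Prpf8 is a core spliceosome protein, Arcn1 a coat protein of Golgi vesicles and Kdm5b a histone demethylase. The arrays share dams, slides and signal strength, and these coefficients are descriptions over 9 points. Within the 10 genes Acly followed Fasn at r = 0.682 and 0.668.

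Thrsp, which helps switch on lipogenic enzymes, read 13.73, 13.70 and 13.27 on d 2, 13.90, 13.19 and 13.76 on d 9, and 13.81, 13.53 and 13.77 on d 16. The 3 days overlapped throughout, and each day's range lay within 13.19 to 13.90. The differences were 0.05 from d 2 to d 9 (95% interval -0.45 to 0.56) and 0.14 from d 2 to d 16 (95% interval -0.37 to 0.65), with limma adjusted p = 0.884 and 0.662. Srebf1, the transcription factor above these enzymes, read 0.79 to 0.84 on 8 of the whey arrays, 1.71 in d 9 dam 1 and 0.83 in serum. None of these values was well above background, so the array gives at most a bound for Srebf1 and its days were not compared. The record that the files give for this probe was not matched to a RefSeq gene. Whether the probe reads the Srebf1 mRNA was not tested.

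Scd1 had its highest values on d 9. The probe A_44_P550145, at chr1:249459057-249459116 (minus strand), read 4.70, 4.97 and 4.84 on d 2, 5.74, 5.19 and 5.00 on d 9, and 4.07, 4.15 and 4.69 on d 16. No value of 1 day overlapped with those of another, in the order d 9, d 2, d 16, although d 2 dam 1 lay close to d 16 dam 3, and d 2 dam 2 to d 9 dam 3. The limma F test over the 3 days passed (adjusted p = 0.0408), but no pair of days did, the nearest being d 16 minus d 9 at -1.005 (SE 0.24, limma adjusted p = 0.0879). The files' symbol Scd stands for another gene, now Scd2, and the present symbol of Scd1 in the rat is Scd.

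Lpl, the lipase that frees fatty acids from lipoproteins, was read by A_44_P1016480 at chr16:22533294-22533353, printed on 10 spots per array, and by A_44_P151230 at chr16:22533824-22533883, both on the minus strand. The second probe read 6.54, 6.28 and 6.11 on d 2, 7.40, 6.87 and 6.54 on d 9, and 7.08, 7.06 and 7.77 on d 16. Every dam was higher on each later day than on d 2, and the d 16 values did not overlap with the d 2 values. The rise from d 2 to d 16 was 0.99 (SE 0.28, limma adjusted p = 0.0312), a 1.99-fold change, and the d 9 minus d 2 difference was 0.62 (limma adjusted p = 0.152).

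The 10-spot probe read 8.47, 8.24 and 7.94 on d 2, 9.08, 8.48 and 8.20 on d 9, and 8.79, 8.61 and 9.24 on d 16. Its spots, 9 on d 2 dam 2 and d 16 dam 1 and 10 on the others, had an SD of log2 signal of 0.04 to 0.08 within a whey array. Its d 16 values too lay above all d 2 values, with a difference of 0.66 (95% interval 0.03 to 1.28) that did not pass the test (limma adjusted p = 0.106). The 2 Lpl probes followed each other across arrays (r = 0.967 over 9 arrays). With the dam as a block the second probe missed the threshold (limma adjusted p = 0.0529), as it did without d 2 dam 2 or 3 or d 16 dam 2 or 3 (adjusted p = 0.0514 to 0.0941). Under spike-in scaling its d 16 minus d 2 difference was 1.62 (limma adjusted p = 0.201), 1.03 above the median of all tested probes. For d 9 against d 2 that scaling called both Lpl probes. Their differences were 1.87 for A_44_P1016480 and 2.16 for A_44_P151230 (limma adjusted p = 0.0311 and 0.0169), beside a median of 1.52 over all tested probes.

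Fabp3, the heart-type fatty acid binding protein that the lactating mammary gland also makes, read 15.77, 15.66 and 15.96 on d 2, 15.33, 15.83 and 16.01 on d 9, and 14.90, 15.33 and 14.72 on d 16. The d 2 and d 9 values overlapped, while all 3 dams were lower on d 16 than on either earlier day. The mean fell by 0.82 from d 2 to d 16 (SE 0.23, limma adjusted p = 0.0307), a 1.76-fold decrease. The d 16 minus d 9 difference was -0.74 (limma adjusted p = 0.148), and the highest d 16 value and the lowest d 9 value, 15.33 in both cases when rounded, nearly met. The d 16 call was lost without any 1 of the 3 d 2 arrays or without d 16 dam 1 or 3 (adjusted p = 0.0575 to 0.104, the same sign in each), and under spike-in scaling the difference was -0.28 (limma adjusted p = 0.871), 0.86 below the median of all tested probes.

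Of the acyltransferases, Gpam catalyses the first step of glycerolipid assembly. Its probe A_44_P242969, which the files place across chr1:261370372-261375755 on the minus strand, was near the limit of detection. It read 4.08, 3.17 and 3.49 on d 2, 4.25, 3.34 and 3.23 on d 9 and 2.77, 2.90 and 3.00 on d 16, and was well above background on 1, 3 and 2 arrays of these days. The d 16 values lay below all the others, with differences of -0.69 from d 2 (limma adjusted p = 0.143) and -0.72 from d 9 (limma adjusted p = 0.276).

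Dgat1 adds the last acyl chain of triacylglycerol. The probe A_44_P515326 read 7.64, 7.82 and 7.73 on d 2, 7.97, 7.08 and 6.42 on d 9, and 7.64, 7.13 and 8.16 on d 16. The probe A_44_P515334 read 5.55, 5.86 and 5.88 on d 2, 6.02, 5.26 and 4.80 on d 9, and 5.69, 5.03 and 6.05 on d 16. The d 2 values of the 3 dams were close together on both probes, and the later ones were spread, with dam 3 lowest on d 9 and highest on d 16. The day means differed by at most 0.57 (d 9 minus d 2 on the first probe, 95% interval -1.49 to 0.35, limma adjusted p = 0.344). The 2 probes, whose sequences are given above, followed each other across the 9 arrays (r = 0.966).

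**Figure D2:**
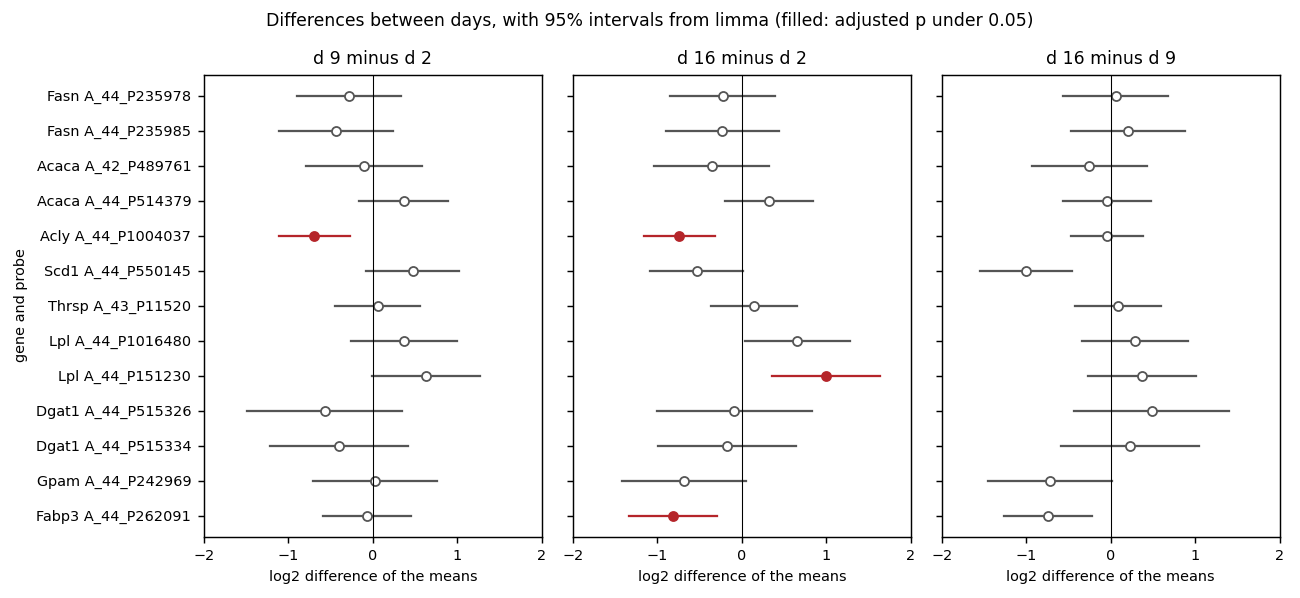
Differences between day means (log2, horizontal axis) for the 13 tested probes (vertical axis) in the 3 comparisons, with bars for limma's 95% interval and filled red points for an adjusted p under 0.05. Acly is filled for d 9 and d 16 against d 2, Lpl A_44_P151230 and Fabp3 for d 16 against d 2, and no point is filled between d 16 and d 9.

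Counted over the 13 tested probes, 1 was called from d 2 to d 9 (0 higher, 1 lower), where 17.7% of all 16849 tested probes were called (11.2% higher, 6.46% lower). From d 2 to d 16, 3 were called (1 higher, 2 lower) against 28.5% of all (16.0% higher, 12.5% lower). From d 9 to d 16, 0 were called by limma against 1.42% of all. Before adjustment 2 of the 13, Scd1 and Fabp3, fell under 0.05 in limma and in the methods' Tukey-Kramer test. The unadjusted Tukey-Kramer test called 2040 of all 16849, and the unadjusted limma share over all probes was not computed. The F test over the 3 days called 3 (Acly, Scd1 and Fabp3) against 25.6% of all, and with the dam as a block it called 0. In the 3 comparisons, 3, 7 and 3 of the 13 probes had no overlap between the values of the 2 days, against 38.8%, 48.2% and 29.4% of all. The median difference of the 13 was -0.07, -0.23 and 0.06, beside 0.11, 0.04 and -0.06 over all tested probes. The share of these probes that was called was thus no larger than that of the array as a whole in any of the 3 comparisons.

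Against serum, some probes were far above it in whey, others had only a low bound, and for the rest no fold can be given. Fasn A_44_P235978, Acly and Thrsp were the 3 probes well above background in serum, at 7.46, 8.17 and 8.58. Their whey means over 9 arrays were 70.5-fold, 42.2-fold and 33.0-fold higher in the normalized values. These folds depend on the scaling. Scaled to the 75th percentile, serum read 6.71, 7.33 and 7.73, and the lowest whey values were 13.22, 13.14 and 13.24. Scaled to the spike-in probes, serum read 4.18, 4.80 and 5.20, and the lowest whey values were 12.54, 12.83 and 12.85. The Fasn serum signal before normalization, 17.9, was below the minimum of 20 for testing a probe in whey. Where serum was not well above background, its level was replaced by the lowest serum value of any probe that was, 5.85. The resulting fold is an approximate lower bound. Some probes failed the background call at higher serum values, such as that of the red cell gene Epb42 at 6.33. Set against 5.85, Fabp3 was 803-fold higher in whey, Fasn A_44_P235985 79.8-fold and Acaca A_44_P514379 43.8-fold. Lpl A_44_P1016480 was 6.54-fold, Lpl A_44_P151230 2.00-fold and Dgat1 A_44_P515326 3.16-fold higher. Serum levels of these 6 probes were measured at 2.99 to 4.98, and every whey value of theirs lay above its serum value. For Dgat1 A_44_P515334, Acaca A_42_P489761, Scd1 and Gpam the whey mean itself was below 5.85, and no fold can be given.

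By measured values 10 of 13 probes were more than 4-fold higher in whey, against 27.2% of the 21154 probes well above background on any array. With the bounds in place of the measured serum values 7 were. The share of all probes under such bounds was not computed, so the 7 cannot be set against the array as a whole. Serum was 1 array taken on another day than any milk, with a much weaker signal, and there is no test of these differences.

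**Figure D3:**
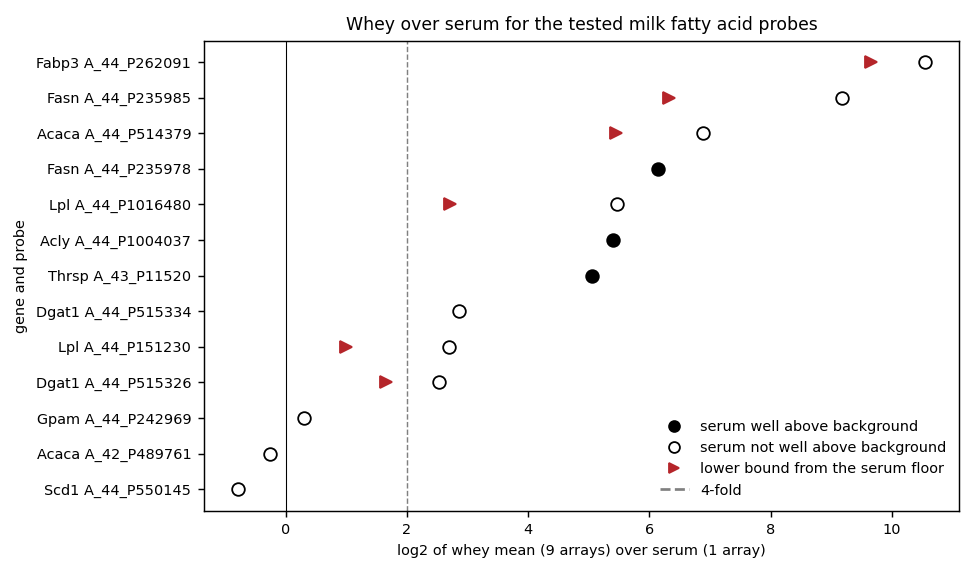
Log2 of the whey mean of 9 arrays over the serum value of 1 array (horizontal axis) for the 13 tested probes (vertical axis). Filled circles mark serum well above background and open circles serum that was not. Triangles mark the approximate lower bound where one is above 0, and a dashed line marks 4-fold. Fabp3 lies farthest to the right and Scd1, Acaca A_42_P489761 and Gpam lie near 0.

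Other genes of milk fat synthesis were listed in 4 groups of 51 genes, of which 50 had a probe, and 55 of their 75 probes, for 39 genes, were tested. From d 2 to d 9, 14 of the 55 (25.5%) were called (10 higher, 4 lower) against 17.7% of all tested probes. From d 2 to d 16, 15 (27.3%) were called (9 higher, 6 lower) against 28.5%. From d 9 to d 16, 0 were called by limma against 1.42%. Before adjustment 13 had a limma p under 0.05, for which no share over all probes was computed. The methods' Tukey-Kramer test without adjustment called 5, against 2040 of all 16849. The d 16 share was thus no higher than that of the array as a whole. Their median differences were 0.28, 0.17 and -0.12, beside 0.11, 0.04 and -0.06 over all tested probes. The regulators of lipogenesis moved mostly through 1 gene. Of 12 probes 5 were higher on d 9 and 4 on d 16, against 11.2% and 16.0% of all tested probes. On each day 4 of them are the probes of Insig1, which holds the SREBP proteins in the endoplasmic reticulum. Insig1 rose by 1.63 to d 9 (SE 0.26, limma adjusted p = 0.00800) and by 2.07 to d 16 (limma adjusted p = 0.00174) on its probe A_44_P547168, the largest rise of the rule in both comparisons. The 4 probes ranged from 1.30 to 1.63 and from 1.89 to 2.07. The remaining regulator called was the kinase Akt1, with a rise of 0.79 to d 9 (limma adjusted p = 0.0411).

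In the group of uptake and activation, 2 of 15 probes were higher and 2 lower on d 9, and 3 were higher and 4 lower on d 16. Of all tested probes 11.2% were higher and 6.46% lower on d 9, and 16.0% higher and 12.5% lower on d 16. The fatty acid translocase Cd36 rose by 1.36 to d 9 and by 1.14 to d 16 (limma adjusted p = 0.00896 and 0.00980). Slc27a3, of the family of fatty acid transport proteins, rose by 1.49 and by 0.89 (limma adjusted p = 0.00448 and 0.0142), and the binding protein Fabp5 rose by 0.79 to d 16 (limma adjusted p = 0.0303), opposite in sign to Fabp3. The acyl-CoA binding protein Dbi fell by 0.76 to d 9 and, on its other probe, by 1.07 to d 16 (limma adjusted p = 0.00967 and 8.4e-04), and the acyl-CoA ligase Acsl4 fell by 1.30 to d 16 (limma adjusted p = 0.00746).

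In the group of de novo synthesis 1 of 16 probes was higher and 2 lower on d 9, and 0 were higher and 2 lower on d 16. For this group and the next, the shares over all tested probes were 11.2% higher and 6.46% lower on d 9. They were 16.0% and 12.5% on d 16. The thioesterase Olah, which ends the growing chain at medium length in the mammary gland, fell by 1.44 to d 9 and by 0.79 to d 16 (limma adjusted p = 0.00632 and 0.0303). The desaturase Fads2 fell by 1.07 to d 9 (limma adjusted p = 0.0328) and the mitochondrial malonyl transferase Mcat by 0.93 to d 16 (limma adjusted p = 0.0445). The one probe higher on d 9 was of the elongase Elovl5, outside the naming rule and named after its value was seen. In triacylglycerol assembly 2 of 12 probes were higher on each later day and 0 lower, among them Agpat6, an endoplasmic reticulum enzyme of the same step as Gpam, which rose by 1.07 and by 1.199 (limma adjusted p = 0.0171 and 0.00698). Under spike-in scaling all 30 pathway probes called for d 9 and all 4 called for d 16 were higher.

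**Figure D4:**
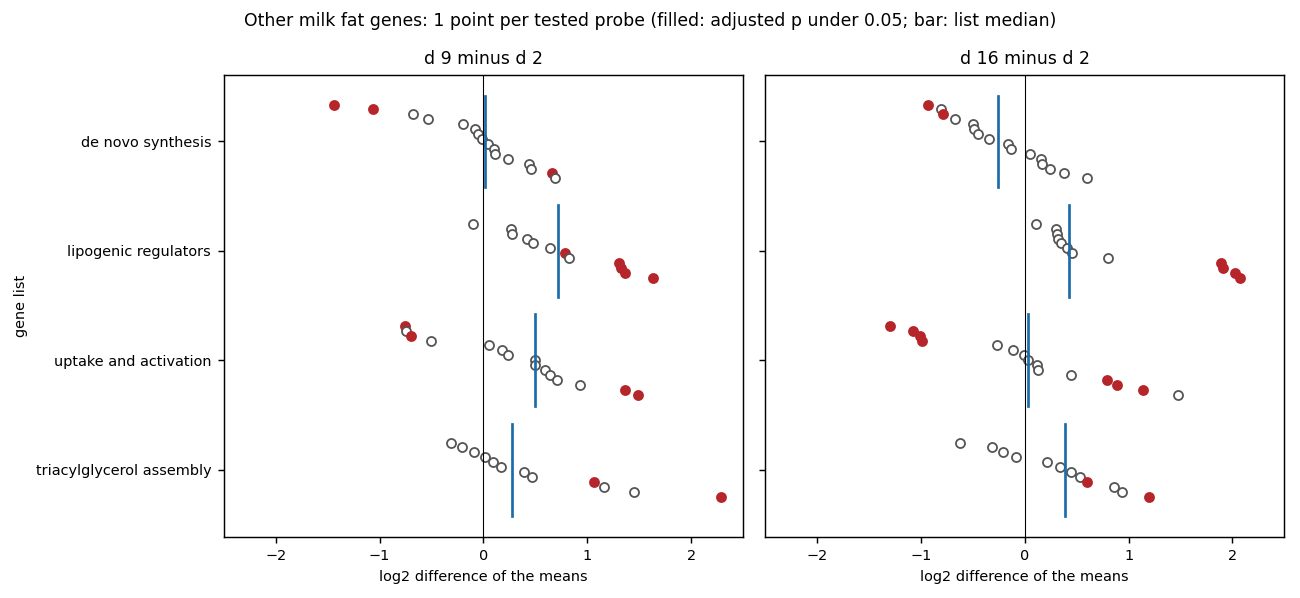
Log2 differences from d 2 (horizontal axis) for the 55 tested probes of the 4 other gene lists (vertical axis), 1 point per probe, filled red where the limma adjusted p is under 0.05, with a blue bar at each list's median. The 4 Insig1 probes form the group farthest to the right among the regulators on d 16, and de novo synthesis holds the lowest median on both days.

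Markers of the mammary epithelium, such as the caseins and Wap, were well above background on all 9 whey arrays for 11 of 11 probes, and their summed level was 19.7 to 19.8 on d 2, 19.6 to 20.03 on d 9 and 20.2 to 20.3 on d 16, against 13.1 in serum. Against d 2, 0 of the 11 were higher and 4 lower on d 9, and 3 were higher and 3 lower on d 16, so the list moved both ways. Over all tested probes 11.2% were higher and 6.46% lower on d 9, and 16.0% and 12.5% on d 16. The keratins fell with Acly: Krt19 by 2.75 and 2.29 (limma adjusted p = 0.00351 and 0.00274 for d 9 and d 16), Krt8 by 1.31 and 1.16, and Krt18 by 0.90 and 0.72 on its probe A_44_P400494. The other Krt18 probe, A_44_P1025476, fell by 0.72 to d 9 (limma adjusted p = 0.0198). Its decrease of 0.36 to d 16 did not pass the test (limma adjusted p = 0.120). The milk protein genes Csn2, Lalba and Wap rose to d 16, by 1.05, 1.02 and 0.70 (limma adjusted p = 0.00567, 0.00966 and 0.0162). In a cell-free fluid, less RNA from a cell type and less RNA per cell cannot be told apart.

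Lpl and Cd36 are also made by macrophages and adipocytes. Of 14 macrophage probes 2 passed the background call on every whey array, and their summed level was 8.51 to 8.86, 8.03 to 9.26 and 9.604 to 9.79 on the 3 days and 11.2 in serum. Of the 9 tested, 4 were higher and 2 lower on d 9, and 6 were higher and 2 lower on d 16. The shares to set beside these and the adipocyte counts were 11.2% higher and 6.46% lower on d 9. On d 16 they were 16.0% and 12.5% of all tested probes. The complement gene C1qb rose with Lpl (means 5.08, 7.30 and 8.77), as did Cd68 and probes of C1qa and C1qc, whereas both probes of the receptor Cd14 fell (A_44_P469584 by 1.54 and 1.88). The 3 probes of the defining receptor Csf1r were well above background on no whey array. Of 10 adipocyte probes 1 passed the background call on every whey array, their sum was lower on d 9 and d 16 (6.97 to 7.44 and 7.10 to 7.34) than on d 2 (8.36 to 8.94) and 12.0 in serum, and of the 4 tested, 0 were higher and 2 lower on each later day. The 2 lower were Cfd (means 8.07, 6.59 and 6.71) and Retn (6.48, 3.33 and 3.04), which had the largest part in the d 2 sum. Adipoq, Plin1 and Lep were well above background on no whey array.

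Of 9 heart and muscle probes, listed because Fabp3 is abundant there, 3 passed the background call on every whey array, with sums of 7.11 to 7.40, 6.99 to 7.75 and 7.91 to 8.27 and 8.21 in serum. Of the 5 tested, 1 was higher and 1 lower on d 9, and 2 were higher and 1 lower on d 16. Among all tested probes 11.2% were higher and 6.46% lower on d 9, and 16.0% and 12.5% on d 16. Myoglobin (Mb) fell by 1.14 to d 9 and by 0.60 to d 16, where Fabp3 was lower too, whereas the muscle creatine kinase Ckm rose by 2.78 and 3.08 and the cardiac troponin Tnnt2 by 1.99 to d 16. Myh6 and Myl2 were at background in whey. Of 13 liver and 6 red cell probes 0 passed it on every whey array, and 3 and 4 did in serum. The part of these cells in the changes of Acly, Lpl, Cd36 and Fabp3 was not tested.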

How the data were processed

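RNA of whey and serum was extracted with silica columns, amplified as Cy3-labelled cRNA from equal amounts of RNA and hybridised to 1-colour Agilent whole rat genome arrays, so levels are shares of the RNA and not amounts per volume of milk. Per the file headers, the deposited intensity (processed signal) came from Agilent Feature Extraction 9.5.3.1 (build rn4), as mean signal minus a fitted spatial surface, divided by a multiplicative trend, with no normalization between arrays. A deposited table of normalized values was not used, because its 10 columns match no sample label. Groups came from the sample titles.

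Control spots and spots flagged as outliers were left out, log2 signals were quantile normalized over all 10 arrays, following the study's methods, and spots of 1 probe were averaged. A probe was tested if it was well above background with a signal over 20 on at least 1 whey array (16849 of 41012). limma 3.58.1 in R 4.3.3 (lmFit, eBayes) compared the days with a two-sided test, and the threshold was an adjusted p of 0.05. The code was tested on simulated data that held no dam, slide or signal-strength effect, so that test does not bear on such effects. The replicate numbers mark the same dams, so they pair the samples by design; deviations from the day mean correlated at r = -0.02 to 0.22 within a dam and -0.25 to 0.16 between dams, and the block is given as an alternative. The 3 arrays a day limit the precision, and the p-values cover 3 dams of 1 strain.

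All probes of the 10 genes were named. Other milk fat genes were named by rule: per comparison up to 5 largest rises and 5 largest falls past the threshold, well above background on all 6 arrays with no overlap between days, 1 probe per gene. The genes most like Fasn were the 5 with the highest Pearson r over the whey arrays. The genes, lists and rules were chosen with earlier results of these data known. Promoters came from RefSeq (GRCr8).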

Additional observations from a re-analysis of the deposited data

How the results depend on the processing

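The calls on Acly, Lpl and Fabp3 lie near the threshold, and depended on how the arrays were scaled and which were kept. Acly d 16 against d 2 was called under 15 of 21 alternatives, and the d 16 calls on Lpl A_44_P151230 and Fabp3 under 13 of 21 each, with the same sign in all 21. Acly d 9 against d 2 was called under 11 of 22 and turned in sign under 1, spike-in scaling. The 10 probes more than 4-fold above serum became 7 to 13. The cause of these changes was not tested. Blocking by dam (the replicate block) left 2 of these probes called for d 16 against d 2, where 3 were called without it. The block gave 0 for d 9 and 0 for the F test, and 110 of all tested probes for d 16 against d 9 (239 without it). It ended the Acly d 9 and Lpl d 16 calls, and no other call on these genes changed between days. Weak signal limits Gpam, Srebf1, Scd1 and 1 Acaca probe.

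Under spike-in scaling the median difference of all tested probes was 1.52 for d 9 and 0.59 for d 16 against d 2, and -0.93 for d 16 against d 9 (0.11, 0.04 and -0.06 in the normalized values). It then called 7072 of all tested probes for d 9 (7004 higher, against 1887 of 2975), 764 for d 16 (587 higher, against 2701 of 4808), 159 for d 16 against d 9 (4 higher, against 94 of 239) and 2864 by the F test. Of these genes' probes it called 4 for d 9, all higher (Acaca A_44_P514379, Scd1 and both Lpl probes), and 0 for d 16. Of the pathway it called 30, 4 and, for d 16 against d 9, 1. The d 9 minus d 2 difference turned to 1.18 and 1.04 for the Fasn probes A_44_P235978 and A_44_P235985, 1.35 for Acaca A_42_P489761, 0.76 for Acly A_44_P1004037, 0.92 and 1.04 for Dgat1 A_44_P515326 and A_44_P515334 and 1.15 for Fabp3 A_44_P262091. For d 16 minus d 2 it turned to 0.39 and 0.32 for the Fasn probes, 0.22 for Acaca A_42_P489761, 0.035 for Scd1 A_44_P550145 and 0.49 and 0.43 for the Dgat1 probes. For d 16 minus d 9 it turned to -0.79 and -0.71 for Fasn, -0.74 for Thrsp A_43_P11520, -0.66 and -0.55 for Lpl A_44_P1016480 and A_44_P151230 and -0.43 and -0.61 for Dgat1.

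Without any filter on dim probes the counts for these genes were 0 for d 9, 1 for d 16 and 0 by the F test. Of the 40992 probes then tested, 133 differed between d 16 and d 9. A minimum signal of 100 and the background call required on all 9 whey arrays each called Scd1 for d 16 against d 9. A slide as a random block and a mean-variance trend in eBayes did so too, in each case with no other of these probes. In this order the settings called 608 of 9605, 525 of 9820, 680 of 16849 and 656 of 16849 tested probes there. The trend called 2 pathway probes there and 24 by the F test. With normexp background correction 869 of all tested and 4 pathway probes were called for d 16 against d 9, while Thrsp turned to -0.032 there and Dgat1 A_44_P515334 to 0.0031 for d 16 against d 2. With the 75th percentile as scale Gpam A_44_P242969 turned to -0.085 for d 9 against d 2. With the slide as a block, which leaves 1 d 2 array beside 3 of d 9, d 9 against d 2 called 499 of all tested probes, 0 of these genes and 0 of the pathway, and Acaca A_42_P489761 turned to 0.25. The methods' Tukey-Kramer test, unadjusted, called 2040 of all tested, 2 of these genes' probes and 5 of the pathway for d 16 against d 9. After Benjamini-Hochberg adjustment it called 1287, 2678 and 0 of all tested in the 3 comparisons, 0 and 0 of these genes for d 9 and d 16 against d 2, and 9 and 9 of the pathway.

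Without 1 array at a time, the calls over all tested probes ranged from 1255 (without d 9 dam 2) to 2717 for d 9, 2745 (without d 16 dam 3) to 4890 for d 16, 23 (without d 16 dam 3) to 264 for d 16 against d 9 and 2396 (without d 2 dam 2) to 4264 by the F test. For these genes they ranged from 0 to 2 for d 9, 0 to 3 for d 16 and 0 to 3 by the F test, and for the pathway from 9 to 15 for d 9. Differences that crossed 0 were, for d 16 against d 9, Fasn -0.13 to 0.33 and -0.047 to 0.54, Acaca A_42_P489761 -0.43 to 0.035 and A_44_P514379 -0.25 to 0.20, Acly -0.20 to 0.056, Thrsp -0.13 to 0.23 and Dgat1 A_44_P515334 -0.051 to 0.56. For d 9 against d 2 they were Acaca A_42_P489761 -0.39 to 0.073, Thrsp -0.093 to 0.27, Gpam -0.29 to 0.28 and Fabp3 -0.22 to 0.12. For d 16 against d 2 they were Thrsp -0.0054 to 0.23, Dgat1 A_44_P515326 -0.35 to 0.17 and A_44_P515334 -0.40 to 0.11. None of these passed the test.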
